A study of Mus musculus with 12 samples.

Results

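Actin filaments and the adhesions that anchor them to the matrix were followed through 37 genes in mouse embryonic stem cells (ESCs) that express wild-type or truncated PRAMEL7. The genes were taken by symbol from a fixed list, out of the 50978 rows of the deposited expression table. They comprise 2 cytoplasmic actins, 4 cross-linkers, 10 adhesion adaptors and LIM proteins, 4 tropomyosins, 6 subunits of non-muscle myosin II, 5 calponins and transgelins, 2 proteins of filament turnover and 4 proteins of the cell cortex. RNA was sequenced from parental E14 ESCs, from ESC + H/F-PRAMEL7WT, which carries HA/FLAG-tagged wild-type PRAMEL7, and from ESC + H/F-PRAMEL7ΔN, which carries the tagged protein without its N-terminus. All 3 lines were cultured in serum with LIF. In both derived lines the transgene sits at Rosa26 under the CAG promoter, and each line was grown from a single cell, so that each line is 1 clone. The length of the N-terminal deletion differs between the sample labels and the text of the study. The study's methods give triplicates, and 2 libraries of each line were analysed here, which the labels describe as independent dishes, so that P values measure the spread between dishes of a line and not between clones. PRAMEL7 is a component of cullin ubiquitin ligases of the CUL2 type, which it contacts through its N-terminus. The comparison of the lines addresses which transcripts change with PRAMEL7 and which of them differ when the N-terminus is removed. In the study, the deleted part also holds the domain for ELONGIN C, and the truncated protein bound chromatin less. Loss of the CUL2 contact can therefore not be told apart from these other differences.

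Actin exists as monomers and as filaments. Cofilin severs filaments and profilin returns monomers to growing ends, tropomyosins coat filaments, and alpha-actinins and filamins cross-link them. Non-muscle myosin II contracts the filaments, and talin, vinculin, zyxin and paxillin connect them to integrins at focal adhesions. Ezrin, radixin and moesin tie filaments to the plasma membrane. Many of these genes carry a CArG box, the binding motif of serum response factor (SRF), whose cofactors are held back by actin monomers. Mouse ESCs in culture grow as rounded, compact colonies, and spreading on the matrix accompanies their exit from pluripotency.

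Because SRF acts through the CArG box, the windows from 250 bases before to 50 bases after the transcript starts were searched for the box on both strands, with RefSeq sequences of GRCm38.p6. Windows were matched for 33 of the 37 genes, and the others were Actb, Pxn, Tagln and Tln2. The box was found in the windows of 6 of these 33 genes, Actg1, Cnn2, Lima1, Myl6, Myl9 and Vcl. It was found in 6 of their 38 windows and in 1.63% of all 32851 windows. The 4 windows below belong to genes that changed in at least one comparison, and capitals mark the CArG box.
Lima1, chr15:99820100-99820399, minus strand: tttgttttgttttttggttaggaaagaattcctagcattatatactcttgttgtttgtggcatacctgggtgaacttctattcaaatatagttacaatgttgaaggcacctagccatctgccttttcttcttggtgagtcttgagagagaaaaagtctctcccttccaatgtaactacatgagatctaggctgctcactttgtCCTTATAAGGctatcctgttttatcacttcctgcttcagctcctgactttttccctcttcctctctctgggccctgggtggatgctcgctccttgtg
Myl9, chr2:156775214-156775513, plus strand: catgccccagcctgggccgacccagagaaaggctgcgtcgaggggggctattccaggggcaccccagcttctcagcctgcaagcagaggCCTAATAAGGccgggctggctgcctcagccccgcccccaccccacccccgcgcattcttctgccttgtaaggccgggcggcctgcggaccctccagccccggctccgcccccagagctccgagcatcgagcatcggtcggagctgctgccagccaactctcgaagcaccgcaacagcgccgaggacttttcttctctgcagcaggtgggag
Myl6, chr10:128492960-128493259, minus strand: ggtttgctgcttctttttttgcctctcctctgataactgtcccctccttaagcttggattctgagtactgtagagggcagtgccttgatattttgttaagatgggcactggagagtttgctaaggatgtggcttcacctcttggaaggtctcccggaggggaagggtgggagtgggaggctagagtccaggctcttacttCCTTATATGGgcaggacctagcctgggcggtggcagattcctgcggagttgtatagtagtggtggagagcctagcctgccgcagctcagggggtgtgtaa
Cnn2, chr10:79988350-79988649, plus strand: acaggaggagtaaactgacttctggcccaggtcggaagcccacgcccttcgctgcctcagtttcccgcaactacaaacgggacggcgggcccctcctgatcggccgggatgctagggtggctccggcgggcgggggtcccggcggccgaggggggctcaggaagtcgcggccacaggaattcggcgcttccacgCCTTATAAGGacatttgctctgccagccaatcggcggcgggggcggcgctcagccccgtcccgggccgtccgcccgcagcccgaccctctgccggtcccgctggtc

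The box of Lima1 begins 47 bases before this start site, that of Myl6 50, that of Cnn2 56 and that of Myl9 161. Lima1 and Cnn2 share the site CCTTATAAGG with Vcl, whereas Actg1 has CCATATATGG, and neither Vcl nor Actg1 passed the test in any comparison. The window of Lima1 surrounds a start site 55307 bases inside the gene model, so that it belongs to a shorter transcript, and which transcript was made was not measured. The window of Myl6 shown surrounds a start site 1136 bases inside the gene model. The other window of Myl6, with a start 259 bases inside, held no box. The letters GGAATG, bound by TEAD factors, were found on either strand in 10 of the 38 windows, from 9 of the 33 genes, and in 14.7% of all windows. The letters GGGCGG, a GC box, were found in 30 of the 38 windows, from 29 of the 33 genes, and in 35.7% of all windows. A match is a description of the letters and not a measure of binding.

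Pramel7 was measured first, as a check of the labels. It had 0.258 and 0.217 CPM (read counts scaled to the size of the library) in the parental libraries, 51.2 and 46.2 in ESC + H/F-PRAMEL7WT, and 397.6 and 430.8 in ESC + H/F-PRAMEL7ΔN. Thus, both derived lines carried the transcript, and the truncated form was far more abundant, with a log2 fold change of -3.06 for wild-type over truncated (standard error 0.11). Any comparison of the derived lines therefore compares different protein forms at different transcript levels. The libraries held between 18259532 and 19860128 reads on genes. The ESC markers Pou5f1 and Sox2 were present in each line, with Pou5f1 between 659.2 and 855.2 CPM. All 12 ESC markers were tested, of which 1 rose and 3 fell in ESC + H/F-PRAMEL7WT, and 1 rose in ESC + H/F-PRAMEL7ΔN. The shares called were 33.3% and 8.33%, beside 25% and 19.9% of all tested genes. In ESC + H/F-PRAMEL7WT Utf1 rose by 0.73 on the log2 scale, and Nanog, Zfp42 and Tdgf1 fell by 0.36, 0.39 and 0.34. Nanog lies on chromosome 6, where the median over all tested genes was -0.26 in that line. In ESC + H/F-PRAMEL7ΔN Dppa5a rose by 0.38. Of 14 fibroblast markers 6 were tested, of which 1 rose and 4 fell in ESC + H/F-PRAMEL7WT and 3 fell in ESC + H/F-PRAMEL7ΔN. These calls were 83.3% and 50% of the tested markers, beside 25% and 19.9% of all tested genes. Lum, Dcn, Fap and Tcf21 had no read in any library, whereas Thy1 had 20.5 to 52.4 CPM and Vim 36.8 to 151.8. The summed level of this list was 167.2 to 177.6 CPM in parental ESCs, 171.1 to 180.4 with PRAMEL7WT and 85.8 to 91.6 with PRAMEL7ΔN, and the cells had been grown on gelatin without feeders. Of 10 smooth muscle markers 6 were tested, of which 2 fell with PRAMEL7WT, and 1 rose and 2 fell with PRAMEL7ΔN. Thus 33.3% and 50% were called, beside 25% and 19.9% of all tested genes. Myh11, Myocd and Actg2 stayed under 1 CPM in each library, whereas Des had 15.7 to 28 CPM, Smtn 24.4 to 32.3 and Cald1 25.3 to 95. This list summed to 84.6 to 115.4 CPM in parental ESCs, 75.6 to 80.4 with PRAMEL7WT and 149.5 to 153.1 with PRAMEL7ΔN. The part of such cells in the values below was not tested. In bulk RNA, fewer cells of a type and less RNA per cell cannot be told apart.

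Of the 37 genes, 36 passed the filter of more than 1 CPM in at least 2 libraries and were tested with limma among 12926 genes. A gene is called changed where its P value, adjusted over all of these genes, is under 0.05. In ESC + H/F-PRAMEL7WT, 16 of the 36 genes were called relative to parental ESCs (44.4%), where 25% of all tested genes were called. Of these, 10 rose and 6 fell (27.8% and 16.7%), where 8.71% of all tested genes rose and 16.3% fell. In ESC + H/F-PRAMEL7ΔN, 13 were called (36.1%), where 19.9% of all tested genes were called. Of these, 8 rose and 5 fell (22.2% and 13.9%), where 6.25% of all tested genes rose and 13.6% fell. The share of genes that fell was thus close to that of all genes in both lines. Between the derived lines, 9 were called (25%), where 20.3% of all tested genes were called. The line with wild-type PRAMEL7 had the higher level for 5 of them and the lower level for 4 (13.9% and 11.1%), where 10.9% of all genes were higher and 9.43% lower. Both libraries of ESC + H/F-PRAMEL7WT lay above both parental ones for 17 of the 36 genes and below them for 9, where this held for 24.3% and 40% of all tested genes. For ESC + H/F-PRAMEL7ΔN these counts were 15 and 11, where 21.6% and 35.4% of all tested genes did so. Between the derived lines they were 15 and 11, where 33.2% and 35.6% of all tested genes did so. Over the 36 genes, the median log2 fold change was 0.13 in ESC + H/F-PRAMEL7WT and 0.11 in ESC + H/F-PRAMEL7ΔN, against -0.08 and -0.06 over all tested genes. Among the genes averaging at least 100 CPM, 11 of 26 members were called in ESC + H/F-PRAMEL7WT and 25.7% of all such genes. In ESC + H/F-PRAMEL7ΔN the same count was 10 of 26, beside 19.5% of all such genes.

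These counts rested on both libraries of each derived line. Without library 1 of ESC + H/F-PRAMEL7WT, 1 gene rose and 1 fell relative to parental ESCs, and without library 2, 0 rose and 1 fell. Over all tested genes, 272 rose and 447 fell without library 1 and 216 and 490 without library 2, in place of 1126 and 2109. Without library 1 of ESC + H/F-PRAMEL7ΔN, 2 genes rose and 2 fell, and without library 2, 2 rose and 3 fell, and over all tested genes 217 and 621 or 313 and 669 did so, in place of 808 and 1758. Calls that held without each of the 6 libraries in turn were 1 of 16 in ESC + H/F-PRAMEL7WT (Flnc), 4 of 13 in ESC + H/F-PRAMEL7ΔN (Lima1, Myh10, Myl6 and Tagln2) and 5 of 9 between the derived lines (Flnc, Lima1, Tpm2, Myl9 and Msn). The direction of each called gene was kept in each alternative setting, other scalings included. With median-ratio scaling, 14 members rose and 5 fell in ESC + H/F-PRAMEL7WT, and over all genes the split moved to 1671 higher and 1494 lower. In ESC + H/F-PRAMEL7ΔN the same scaling gave 10 members higher and 4 lower, and over all genes 1120 and 1369.

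**Figure D1:**
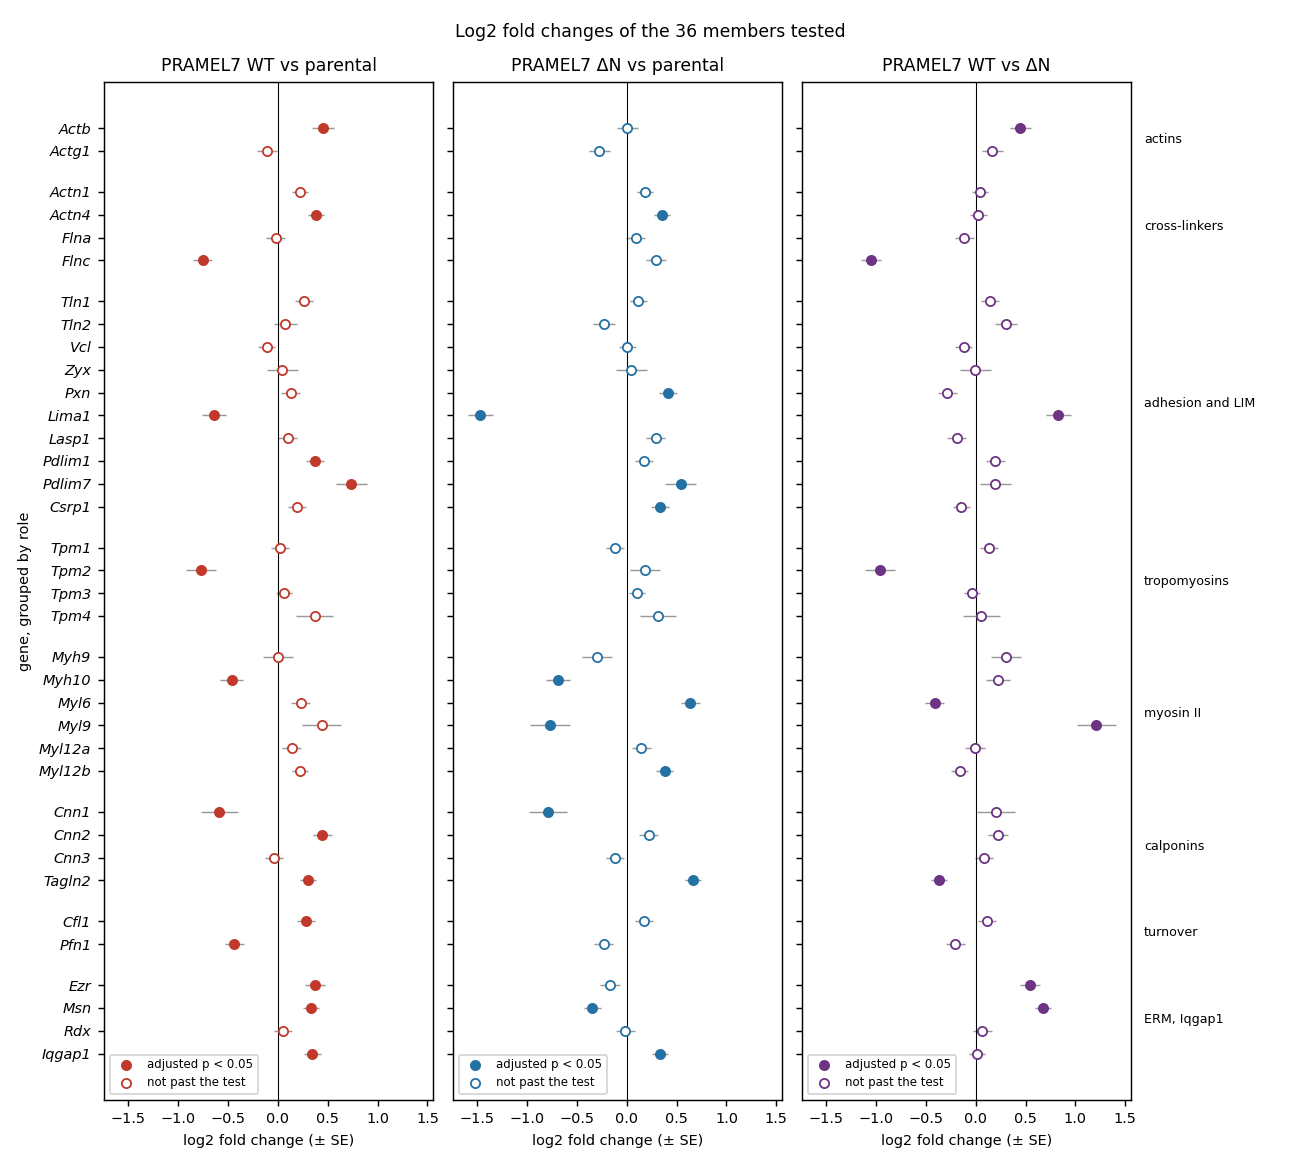
Log2 fold change of each tested gene (x axis) with its standard error, for the 3 comparisons of lines, with genes grouped by role on the y axis. Filled points passed the test at an adjusted p under 0.05. Most points lie between -0.5 and 0.5, and Flnc, Lima1, Tpm2, Myl9, Myh10 and Cnn1 lie below -0.58 in at least one comparison.

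Together the 37 genes took 1.21% and 1.20% of the reads on genes in the parental libraries. They took 1.39% and 1.36% in ESC + H/F-PRAMEL7WT and 1.33% and 1.22% in ESC + H/F-PRAMEL7ΔN. On this scale both derived lines lay above the parental libraries, and with 2 libraries against 2 the smallest two-sided exact permutation p is 0.333. In summed CPM, ESC + H/F-PRAMEL7ΔN had 13170 and 12170 and the parental libraries had 12190 and 11940, so that these lines overlapped. The actins summed to 3241 and 3012 CPM in parental ESCs, to 3990 and 4086 in ESC + H/F-PRAMEL7WT and to 3344 and 2763 in ESC + H/F-PRAMEL7ΔN. To compare levels between genes, CPM were divided by the kilobases of exon. On this scale Actb was the most abundant in parental ESCs with 960.5 ± 52.3 CPM per kilobase (SD, n = 2), followed by Cfl1 with 533.6 ± 34.1, Pfn1 with 265.4 ± 27.6 and Actg1 with 208 ± 8.23. Tagln2 with 150.6 ± 3.51 and Actn4 with 125.6 ± 3.31 came next. Ezr with 106.9 ± 14.4 and Flna with 106.5 ± 5.95 did not differ beyond their spread. At the other end lay the smooth muscle genes Cnn1, with 0.589 ± 0.02 CPM per kilobase, and Tagln, which had 0 to 4 reads per library and was not tested.

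The actins were represented by Actb and Actg1, which encode beta- and gamma-actin, the nearly identical actins of non-muscle cells. Actb had 2672 and 2474 CPM in the parental libraries, 3470 and 3581 with PRAMEL7WT and 2837 and 2351 with PRAMEL7ΔN. Both libraries with wild-type PRAMEL7 were above all others, whereas those with the truncated form lay on both sides of the parental ones. The log2 fold change was 0.45 ± 0.11 (SE) in ESC + H/F-PRAMEL7WT (adjusted p = 0.016), 0.01 in ESC + H/F-PRAMEL7ΔN (adjusted p = 0.976) and 0.45 between the derived lines (adjusted p = 0.0192). Actg1 had 568.4 and 537.5 CPM in the parental libraries, 520 and 505.2 with PRAMEL7WT and 507.4 and 411.6 with PRAMEL7ΔN. All 4 derived libraries were below the parental ones, and the changes of -0.11 and -0.27 on the log2 scale did not pass the test (adjusted p = 0.471 and 0.0983).

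The ratio of Actb to Actg1 within a library does not depend on the scaling of that library. It was 4.7 and 4.6 in the parental libraries, 6.67 and 7.09 with PRAMEL7WT, and 5.59 and 5.71 with PRAMEL7ΔN. The 3 lines did not overlap in this ratio. Actg1 lies on chromosome 11, where the median log2 fold change of the 1103 tested genes was -0.36 in ESC + H/F-PRAMEL7WT and -0.33 in ESC + H/F-PRAMEL7ΔN. The part of this chromosome-wide difference in the ratio was not tested. Both actins have processed pseudogenes, and how reads shared with such copies were counted is not given in the sources used here.

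**Figure D2:**
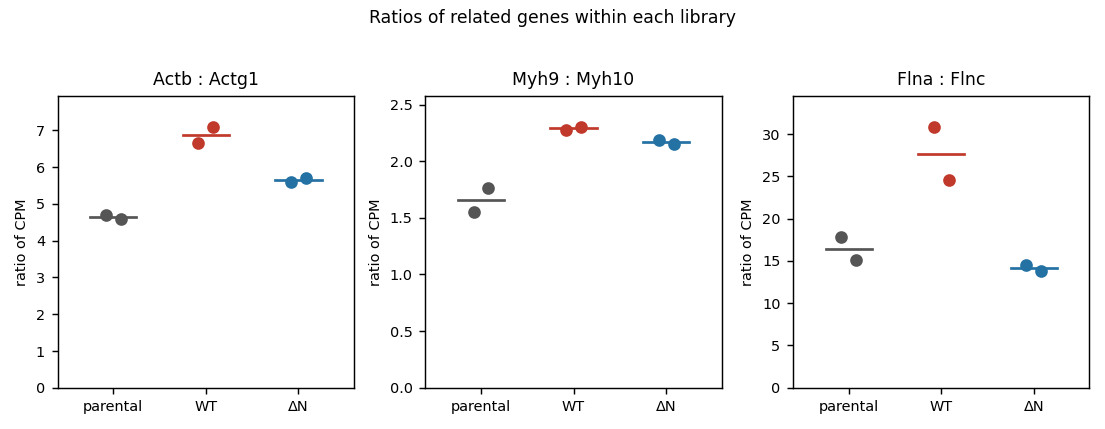
Ratio of CPM (y axis) between related genes in each library (points) and mean of each line (bars), for parental ESCs, PRAMEL7 WT and PRAMEL7 ΔN. The ratio of Actb to Actg1 was 4.6 to 4.7 in parental ESCs and 6.67 to 7.09 with wild-type PRAMEL7, and that of Myh9 to Myh10 was above the parental libraries in both derived lines.

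Of the cross-linkers, filamin C differed most. Flnc, the filamin of striated muscle, had 58.5 and 63.8 CPM in the parental libraries, 34.2 and 37.5 with PRAMEL7WT and 76.6 and 73.7 with PRAMEL7ΔN. The 3 lines were separated, with the lowest values in the line with wild-type PRAMEL7. It fell in ESC + H/F-PRAMEL7WT by 0.75 on the log2 scale (SE 0.1, adjusted p = 0.00156), and the increase of 0.29 in ESC + H/F-PRAMEL7ΔN did not pass the test (adjusted p = 0.0663). Between the derived lines the log2 fold change was -1.05 (adjusted p = 0.000179), that is, 0.477 times the level of ESC + H/F-PRAMEL7ΔN. Flnc lies on chromosome 6, where the median over 603 tested genes was -0.26 in ESC + H/F-PRAMEL7WT, 0.25 in ESC + H/F-PRAMEL7ΔN and -0.39 between the derived lines. After subtraction of these medians, -0.5 remained for Flnc in ESC + H/F-PRAMEL7WT and -0.65 between the derived lines.

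Filamin A, the widely expressed paralogue, was not called in any comparison, with changes of -0.02 and 0.09. Consequently, the ratio of Flna to Flnc was 17.8 and 15.1 in the parental libraries, 30.8 and 24.6 with PRAMEL7WT and 14.5 and 13.9 with PRAMEL7ΔN. Actn4, the alpha-actinin found in stress fibres and nucleus of non-muscle cells, rose in both derived lines, by 0.38 and 0.35 on the log2 scale (adjusted p = 0.0109 and 0.0163). Its parental values of 755 and 783.7 CPM lay below 946.7 to 1020 in the derived libraries. Actn1 changed by 0.22 and 0.18 without passing the test.

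Among the adaptors and LIM proteins, Lima1 showed the largest difference of all members on the log2(CPM + 1) scale of the test. Lima1 encodes EPLIN, which bundles filaments, slows their depolymerization and links the cadherin-catenin complex to actin. It had 196.4 and 261.3 CPM in the parental libraries, 147.5 and 142.4 with PRAMEL7WT and 80.7 and 81.7 with PRAMEL7ΔN. The lines were ordered without overlap, and the line with the truncated protein had 0.355 times the parental mean. The log2 fold change was -1.47 ± 0.12 (SE) in ESC + H/F-PRAMEL7ΔN (adjusted p = 0.000109) and -0.64 in ESC + H/F-PRAMEL7WT (adjusted p = 0.00686). The difference of 0.83 between the derived lines passed the test as well (adjusted p = 0.00192). Lima1 is on chromosome 15, whose medians were 0.03 and -0.05.

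Pdlim7 went the other way. It encodes Enigma, a PDZ-LIM protein that binds tropomyosin-coated filaments. It had 28.9 and 39.4 CPM in the parental libraries, 52 and 62.1 with PRAMEL7WT and 53.4 and 45.9 with PRAMEL7ΔN. The derived libraries were all above the parental ones, although these differed from each other by more than the higher of them differed from the lowest derived library. It rose by 0.74 with wild-type PRAMEL7 (SE 0.16, adjusted p = 0.00992) and by 0.54 with the truncated form (adjusted p = 0.0375). The second call was lost in 9 of 17 alternatives, with adjusted p up to 0.241.

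The remaining calls among the adaptors were smaller. Pdlim1 rose in ESC + H/F-PRAMEL7WT by 0.37 (adjusted p = 0.0193). Pxn, encoding the adhesion scaffold paxillin, rose in ESC + H/F-PRAMEL7ΔN by 0.41 (adjusted p = 0.0138), and Csrp1 rose in that line by 0.33 (adjusted p = 0.0261). Tln1 and Tln2 for talin, Vcl for vinculin, Zyx for zyxin and the adaptor Lasp1 did not pass the test in any comparison, with log2 fold changes between -0.23 and 0.29 relative to parental ESCs. Tln1 was the nearest to the limit, with 0.26 in ESC + H/F-PRAMEL7WT (adjusted p = 0.0545). Lasp1, on chromosome 11, lay 0.46 above the median of that chromosome in ESC + H/F-PRAMEL7WT.

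**Figure D3:**
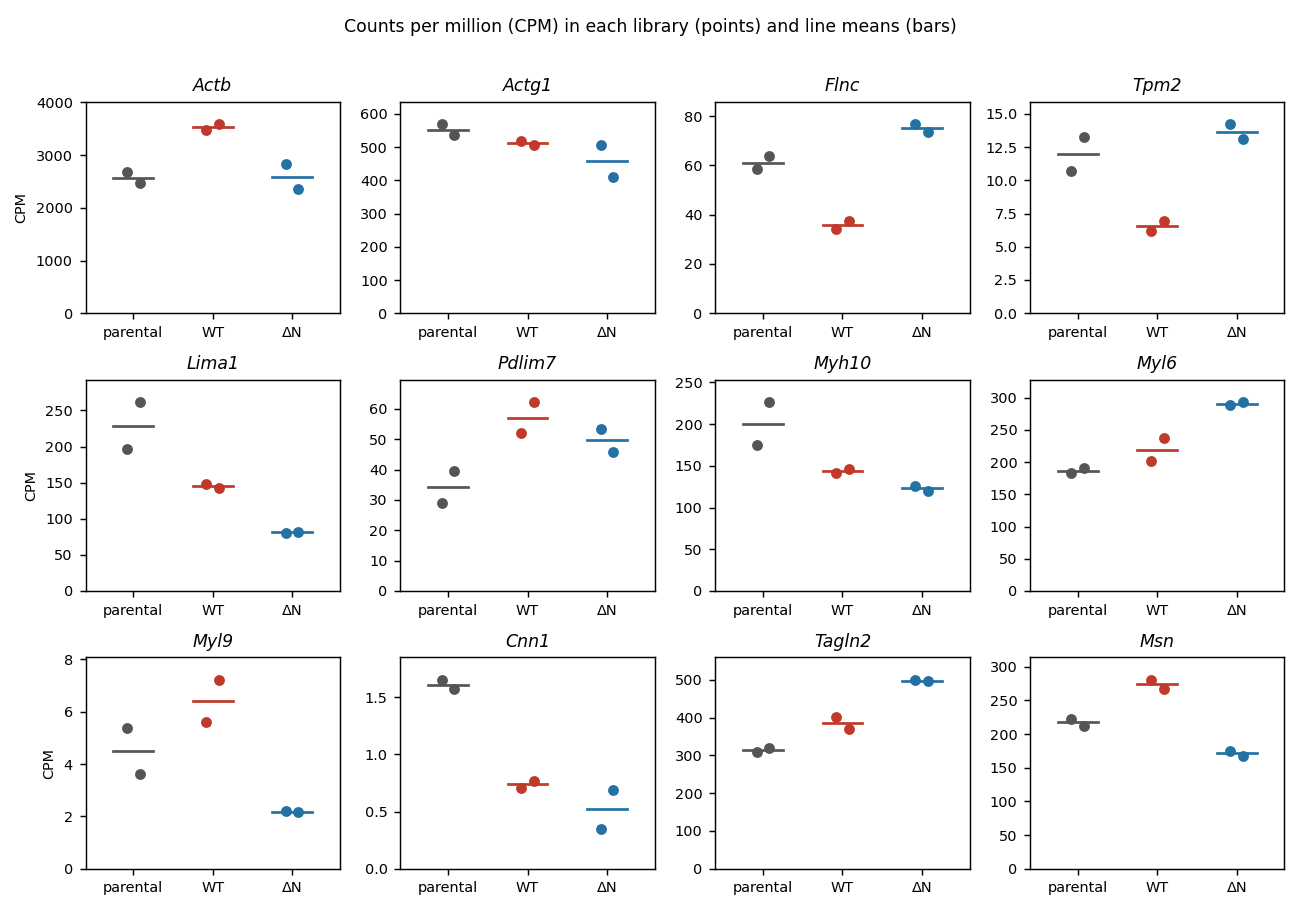
CPM (y axis, starting at 0) in each library (points) and mean of the line (bars) for the genes with a called log2 fold change beyond 0.58 and for Actb and Actg1. Flnc and Tpm2 were lowest with wild-type PRAMEL7, Lima1 and Myh10 fell from parental over wild-type to truncated PRAMEL7, and Msn lay above the parental libraries in one derived line and below them in the other.

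The tropomyosins changed in a single member. Tpm2, beta-tropomyosin of muscle and fibroblasts, had 10.7 and 13.2 CPM in the parental libraries, 6.18 and 6.94 with PRAMEL7WT and 14.2 and 13.1 with PRAMEL7ΔN, from 122 to 283 reads. Both libraries with wild-type PRAMEL7 were below all others. It fell by 0.77 on the log2 scale in that line (SE 0.15, adjusted p = 0.00725), and the log2 fold change between the derived lines was -0.96 (adjusted p = 0.00258). The change in ESC + H/F-PRAMEL7ΔN was 0.19 (adjusted p = 0.431). Tpm1, Tpm3 and Tpm4, which carry most of the tropomyosin reads in these cells, were not called, with changes from -0.11 to 0.37. Tpm2 and Flnc thus shared their lowest level in ESC + H/F-PRAMEL7WT, and they lie on different chromosomes, Tpm2 on chromosome 4 with a median of -0.03 in that line.

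Non-muscle myosin II consists of heavy chains, regulatory light chains and essential light chains. The heavy chain gene Myh10, encoding myosin IIB, had 174.6 and 226.1 CPM in the parental libraries, 141.6 and 146 with PRAMEL7WT and 125.9 and 119.8 with PRAMEL7ΔN. The lines did not overlap. It fell by 0.46 with wild-type PRAMEL7 (SE 0.12, adjusted p = 0.0197) and by 0.69 with the truncated form (adjusted p = 0.00396). Myh10 lies on chromosome 11, and of the 139 other tested genes within 5 Mb, 63 fell and 1 rose in ESC + H/F-PRAMEL7WT. Relative to the chromosome median, -0.11 remained in ESC + H/F-PRAMEL7WT and -0.36 in ESC + H/F-PRAMEL7ΔN.

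Myh9, encoding myosin IIA, was not called, with 271.5 and 398.4 CPM in the parental libraries, which enclosed those of ESC + H/F-PRAMEL7WT. The ratio of Myh9 to Myh10 was 1.55 and 1.76 in the parental libraries, 2.28 and 2.3 with PRAMEL7WT and 2.19 and 2.16 with PRAMEL7ΔN. In both derived lines myosin IIA transcripts hence made up more of the sum of both heavy chains.

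The light chains differed in the line with truncated PRAMEL7. Myl6, the essential light chain, had 182.4 and 190.3 CPM in the parental libraries, 201.6 and 236.6 with PRAMEL7WT and 288.2 and 292.8 with PRAMEL7ΔN. It rose by 0.64 in the last (SE 0.09, adjusted p = 0.00205) and was lower in ESC + H/F-PRAMEL7WT than there by 0.41 (adjusted p = 0.0153). Myl9, the regulatory chain typical of smooth muscle, was rare. It had 5.37 and 3.63 CPM in the parental libraries, 5.62 and 7.21 with PRAMEL7WT and 2.21 and 2.16 with PRAMEL7ΔN, the last from 44 and 41 reads. It fell by 0.77 in ESC + H/F-PRAMEL7ΔN (adjusted p = 0.0238), and the difference of 1.21 between the derived lines was the largest in that comparison (SE 0.2, adjusted p = 0.00308). Of the other regulatory chains, Myl12b rose in ESC + H/F-PRAMEL7ΔN by 0.38 (adjusted p = 0.0117) and Myl12a was not called. Exons of these neighbouring and nearly identical genes overlap in the annotation, so that the split of reads between them is uncertain.

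Calponins and transgelins bind along filaments and restrain their sliding. Tagln2, the transgelin of non-muscle cells, had 308.4 and 318.8 CPM in the parental libraries, 403 and 371 with PRAMEL7WT and 499.7 and 496.1 with PRAMEL7ΔN. The 3 lines did not overlap, with the highest level beside the truncated protein. It rose by 0.3 in ESC + H/F-PRAMEL7WT (adjusted p = 0.0258) and by 0.67 in ESC + H/F-PRAMEL7ΔN (SE 0.08, adjusted p = 0.000799), and the lines differed from each other by 0.36 (adjusted p = 0.0137). Cnn2 rose in ESC + H/F-PRAMEL7WT by 0.44 (adjusted p = 0.0107) and Cnn3 was not called. Cnn1, calponin of smooth muscle, had 1.65 and 1.57 CPM in the parental libraries, 0.709 and 0.771 with PRAMEL7WT and 0.351 and 0.686 with PRAMEL7ΔN. These values stand for 7 to 32 reads per library. It fell by 0.59 and 0.79 on the log2 scale (adjusted p = 0.047 and 0.0172), and the first of these calls was lost in 14 of 16 alternatives, with adjusted p up to 0.196.

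Of the genes of filament turnover, Cfl1 for cofilin rose in ESC + H/F-PRAMEL7WT by 0.28 (adjusted p = 0.0451) and Pfn1 for profilin fell by 0.44 (adjusted p = 0.0124). Neither was called in ESC + H/F-PRAMEL7ΔN. The call of Cfl1 was lost without a filter, with only the compared lines, without a trend and with RPKM unconverted. Pfn1 is on chromosome 11, and -0.08 remained in ESC + H/F-PRAMEL7WT after subtraction of the chromosome median.

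The cortical linkers ezrin and moesin rose with wild-type PRAMEL7 and were higher there than with the truncated form. Msn, encoding moesin, had 223.1 and 212.5 CPM in the parental libraries, 280.3 and 267.7 with PRAMEL7WT and 175.3 and 167.5 with PRAMEL7ΔN. It was the only member called in opposite directions, with 0.33 in ESC + H/F-PRAMEL7WT (adjusted p = 0.0179) and -0.34 in ESC + H/F-PRAMEL7ΔN (adjusted p = 0.017). The call in ESC + H/F-PRAMEL7ΔN was lost with median-ratio scaling, with only the compared lines and without a trend. Without a trend the call in ESC + H/F-PRAMEL7WT was lost as well. The difference between the derived lines was 0.67 (SE 0.08, adjusted p = 0.000693). Msn lies on the X chromosome, whose medians were -0.16 in ESC + H/F-PRAMEL7WT and -0.17 in ESC + H/F-PRAMEL7ΔN. After their subtraction, 0.49 and -0.17 remained for Msn. The 31 other tested genes within 5 Mb had medians of 0.42 in ESC + H/F-PRAMEL7WT, -0.18 in ESC + H/F-PRAMEL7ΔN and 0.55 between the derived lines. Of these neighbours, 15 rose and 1 fell in ESC + H/F-PRAMEL7WT. Msn thus moved with the genes around it, and the part of this in its values was not tested.

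Ezr, encoding ezrin, rose in ESC + H/F-PRAMEL7WT by 0.37 (adjusted p = 0.0268) and was higher there than in ESC + H/F-PRAMEL7ΔN by 0.54 (adjusted p = 0.00586). Its change of -0.17 in ESC + H/F-PRAMEL7ΔN did not pass the test, and the genes within 5 Mb had a median of 0 in both comparisons with parental ESCs. Rdx, encoding radixin, was not called, with changes of 0.05 and -0.01. Exons of Ezr, Actn4 and Cfl1 overlap those of Sytl3, Capn12 and Snx32 on the opposite strand, and the kit does not mark strand, so that reads of such pairs cannot be told apart there. Iqgap1, a scaffold of the cortex that binds filaments, rose in both lines, by 0.35 and 0.33 (adjusted p = 0.0165 and 0.022).

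**Figure D4:**
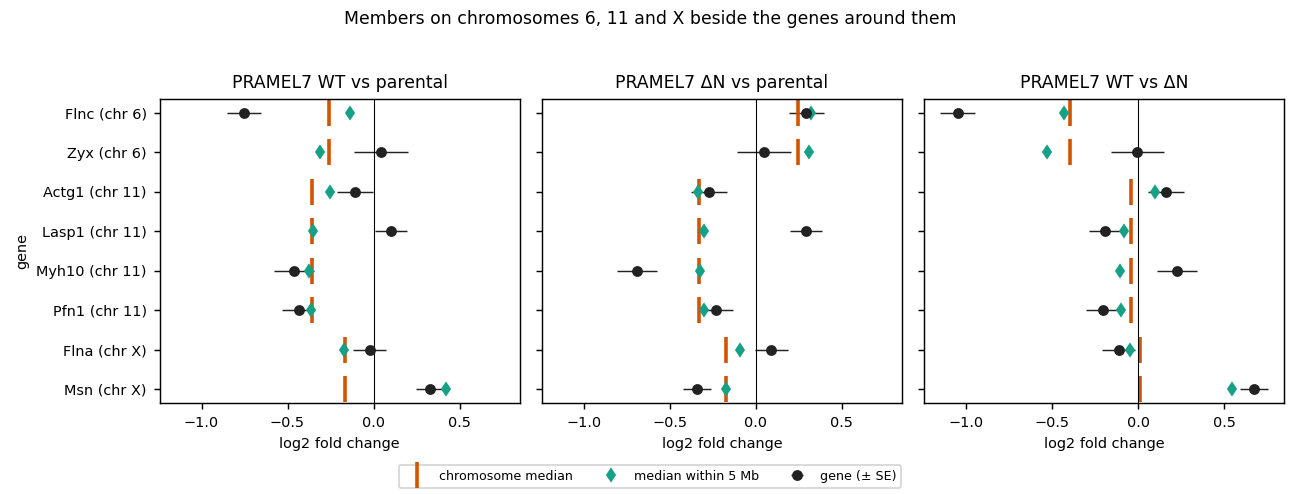
Log2 fold change (x axis) of the members on chromosomes 6, 11 and X (black points with SE) beside the median of all tested genes of the chromosome (orange bars) and of those within 5 Mb (green diamonds), for the 3 comparisons. Msn and its neighbours lay together at 0.33 and 0.42 with wild-type PRAMEL7, Pfn1 lay near the chromosome 11 median of -0.36, and Flnc lay below the chromosome 6 median with wild-type PRAMEL7.

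Both comparisons with parental ESCs use the same parental libraries, so that the calls shared between them are not independent. The difference between the derived lines does not use the parental means. Of the genes called in ESC + H/F-PRAMEL7WT but not in ESC + H/F-PRAMEL7ΔN, Actb, Flnc, Tpm2 and Ezr differed between the derived lines, whereas for Pdlim1, Cnn2, Cfl1 and Pfn1 that difference did not pass the test. Of those called in ESC + H/F-PRAMEL7ΔN but not in ESC + H/F-PRAMEL7WT, Myl6 and Myl9 differed between the derived lines, and for Pxn, Csrp1 and Myl12b the difference did not pass the test. In no comparison were 15 of the 36 genes called.

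Other genes of these pathways were counted from lists written from general knowledge. Of 11 listed regulators of the SRF pathway, 9 were matched to a gene and 7 were tested. Among these 7, 2 rose and 3 fell in ESC + H/F-PRAMEL7WT (71.4% called, beside 25% of all genes). In ESC + H/F-PRAMEL7ΔN 2 rose and 1 fell (42.9%, beside 19.9% of all genes). Srf itself had 51.2 and 55.5 CPM in the parental libraries, 71.1 and 75.8 with PRAMEL7WT and 54.3 and 50.5 with PRAMEL7ΔN. It rose with wild-type PRAMEL7 by 0.46 (adjusted p = 0.0105) and differed between the derived lines by 0.48 (adjusted p = 0.00873). Ablim1, an actin-binding LIM protein, fell in ESC + H/F-PRAMEL7WT by 0.84 (adjusted p = 0.00127) and rose in ESC + H/F-PRAMEL7ΔN by 0.65 (adjusted p = 0.00288). Of 23 further SRF targets tested, 5 rose and none fell in ESC + H/F-PRAMEL7WT (21.7% called, beside 25% of all genes), and 3 rose and 3 fell in ESC + H/F-PRAMEL7ΔN (26.1%, beside 19.9% of all genes). The targets that rose with wild-type PRAMEL7 included the immediate early genes Junb (0.96, adjusted p = 0.00784) and Ier2 (0.61, adjusted p = 0.0152), Csrp2 (0.64, adjusted p = 0.00157) and the fibronectin receptor subunit Itga5 (0.5, adjusted p = 0.00536). Itga5 and Csrp2 also rose in ESC + H/F-PRAMEL7ΔN, by 0.65 and 0.34 (adjusted p = 0.0014 and 0.022). Fhl1 and Egr1 fell in that line, by 0.56 and 0.54 (adjusted p = 0.00832 and 0.00855). Srf belongs to both lists. Over the targets the median log2 fold change was 0.08 in ESC + H/F-PRAMEL7WT.

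Of 30 genes of the Arp2/3 complex and other nucleators, 1 rose and 2 fell with wild-type PRAMEL7 (10% called, beside 25% of all genes). With the truncated form 4 rose and 3 fell (23.3%, beside 19.9% of all genes). Actr2, an Arp2/3 subunit on chromosome 11, fell with wild-type PRAMEL7 by 0.54 (adjusted p = 0.00443). Brk1 and Arpc4, both on chromosome 6, rose with the truncated form by 0.59 and 0.53 (adjusted p = 0.00838 and 0.00727). The 10% of this list called in ESC + H/F-PRAMEL7WT was below the share of all genes.

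Of 27 other genes of actin turnover, 1 rose and 5 fell in ESC + H/F-PRAMEL7WT (22.2% called, beside 25% of all genes). In ESC + H/F-PRAMEL7ΔN 5 rose and 8 fell (48.15%, beside 19.9% of all genes). Pls3, the bundler plastin 3 on the X chromosome, fell in both, by 0.68 and 1.56 (adjusted p = 0.0158 and 0.000367). Tmsb10, a monomer-binding thymosin on chromosome 6, rose in ESC + H/F-PRAMEL7ΔN by 0.64 (adjusted p = 0.00431). Of 40 other focal adhesion genes, 7 rose and 5 fell with wild-type PRAMEL7 (30% called, beside 25% of all genes). With the truncated form 8 rose and 5 fell (32.5%, beside 19.9% of all genes). Fblim1 for migfilin rose with wild-type PRAMEL7 by 0.69 (adjusted p = 0.00115), as did Trip6 by 0.67 (adjusted p = 0.00287). Tes and Crk fell in that line by 0.76 and 0.65 (adjusted p = 0.00279 and 0.00307). They lie on chromosomes 6 and 11, whose medians in that line were -0.26 and -0.36. Iqgap2 fell with the truncated form by 0.82 (adjusted p = 0.002). Fermt2, kindlin-2, which activates integrins, rose with the truncated form by 0.73 (adjusted p = 0.00101) and was lower in ESC + H/F-PRAMEL7WT than there by 1.01 (adjusted p = 0.000166).

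YAP and its TEAD partners respond to actin tension. Of the 18 tested genes of this pathway, 6 rose and 8 fell in ESC + H/F-PRAMEL7WT (77.8% called, beside 25% of all genes). Their median log2 fold change in that line was 0.03. In ESC + H/F-PRAMEL7ΔN 2 rose and 5 fell (38.9%, beside 19.9% of all genes). Tead2 rose with wild-type PRAMEL7 by 0.72 (adjusted p = 0.00248) and differed between the derived lines by 0.68 (adjusted p = 0.00261). Tead4, on chromosome 6, had 50.8 and 58.2 CPM in the parental libraries, 44 and 42.7 with PRAMEL7WT and 113.7 and 103.6 with PRAMEL7ΔN, a rise of 0.98 in the last (adjusted p = 0.000368). The Hippo pathway adaptor Mob1b fell in both derived lines, by 0.85 and 0.73 (adjusted p = 0.00253 and 0.00436).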

How the data were processed

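RNA of 2 libraries for each of 3 lines was analysed. Per the study's methods, the authors used SortMeRNA against ribosomal reads, Trimmomatic for trimming and STAR for alignment to mm10, computed the coverage of exons by a custom pipeline, and the deposited values are RPKM per library. The submitters' processing notes name Bowtie2 2.3.4.3 and Subread 1.4.6-p4 instead. Further deposited tables hold the authors' DESeq2 comparisons (fold changes, P values and pooled means) and were not used. The ChIP samples were not analysed here.

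The length behind RPKM was found to be the gene span, introns included: among values of at least 1000 reads, RPKM times span gave whole reads within 0.1 for 92.8 to 93.1% of the values. Of 801 genes where it did not, another length was found for 607, and all 37 members gave whole reads in each library. Values were multiplied by this length and one constant, which gives CPM and keeps the authors' scaling. Gene models were those of GENCODE vM21, matched for 47952 genes. The test was limma 3.58.1 (R 4.3.3) on log2(CPM + 1), with all 6 libraries in one fit and a trend of variance on level, for genes whose CPM passed 1 in at least 2 of them. P values are two-sided and Benjamini-Hochberg adjusted over all tested genes, and fold changes are on the log2(CPM + 1) scale, which understates those of rare genes. The fit was tested on simulated data. Tables and figures used python 3.11.15, pandas 2.3.3 and matplotlib 3.10.9. Ratios between members were chosen after values were seen.

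The members and lists were chosen with earlier results of these data known. Values in each library are given for members called with an absolute log2 fold change above 0.58 and for Actb and Actg1, other called members are named with their change, and up to 4 called genes per list with at least 10 CPM are named. One further list and 1 gene are not reported here. The kit does not mark strand, and exons of 16 members overlap those of another gene. Other settings tried were a filter of 10 CPM or none, a pseudocount of 0.1 or 5, the replicate number as a block, only the compared lines, 2 other scalings, no trend, another call rule, RPKM unconverted, voom on the whole reads, centring on chromosome medians, a loess correction for GC content and exon length, and leaving out each library.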

Additional observations from a re-analysis of the deposited data

Results flagged for a closer look

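The derived lines differed from each other, in the direct test of ESC + H/F-PRAMEL7WT against ESC + H/F-PRAMEL7ΔN, for 9 members. Higher with wild-type PRAMEL7 were Myl9 by 1.21 on the log2 scale, Lima1 by 0.83, Msn by 0.67, Ezr by 0.54 and Actb by 0.45. Lower with wild-type PRAMEL7 were Flnc with -1.05, Tpm2 with -0.96, Myl6 with -0.41 and Tagln2 with -0.36. Msn was the only one called in opposite directions relative to parental ESCs, and its call in ESC + H/F-PRAMEL7ΔN was lost with median-ratio scaling. Flnc, Tpm2, Actb and Ezr differed from parental ESCs in ESC + H/F-PRAMEL7WT, Myl6 and Myl9 in ESC + H/F-PRAMEL7ΔN, and Lima1 and Tagln2 in both, to a larger extent in ESC + H/F-PRAMEL7ΔN. The level of Pramel7 also differed between the derived lines, with 48.7 ± 3.49 CPM (SD, n = 2) of the wild-type and 414.2 ± 23.5 CPM of the truncated form, so that form and level cannot be told apart in these differences.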

How the results depend on the processing

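No called member reversed its direction under any alternative, whereas some members that were not called did so after centring on chromosome medians, among them Actg1, with 0.25 and 0.06 in the derived lines. Of 733 values of called members under an alternative, 570 were kept and 156 no longer passed the threshold. The other 7, all from centring on chromosome medians, moved by more than the standard error of the comparison. Values under that centring were judged by this shift and not by the threshold. The calls of Cfl1, Tagln2 and Ezr in ESC + H/F-PRAMEL7WT were lost without a filter, with only the compared lines, without a trend and with RPKM unconverted. Those of Csrp1 and Iqgap1 in ESC + H/F-PRAMEL7ΔN were lost without a filter, with only the compared lines and without a trend. The counts of members called that moved by more than 1.5 times follow, as higher and lower where both moved. Relative to parental ESCs, ESC + H/F-PRAMEL7WT had 5 higher and 3 lower without a filter, 4 higher without a trend, 2 and 0 with RPKM unconverted (2351 genes tested), 16 higher with the loess correction, 3 lower after centring on chromosome medians, and 1 higher with an unadjusted p under 0.05 and a fold change beyond 0.58. ESC + H/F-PRAMEL7ΔN had 4 higher without a filter, 5 higher with only the compared lines, 4 higher without a trend, 4 and 0 with RPKM unconverted, 16 higher with the loess correction, 3 lower with a filter of 10 CPM, 3 lower after centring, and 2 higher with the unadjusted p. Between the derived lines, counts were 9 higher with only the compared lines, 2 lower without a trend, 1 and 1 with RPKM unconverted, 7 lower with the loess correction, and 3 and 2 with the unadjusted p. RPKM over the span understates long genes, fewer of which pass its filter. Myl9 and Cnn1, both called lower in ESC + H/F-PRAMEL7ΔN, did not pass the filter of 10 CPM and were not tested there. The cause of the other moves was not tested. Without each library in turn, higher and lower calls ranged from 0 to 14 and from 1 to 6 in ESC + H/F-PRAMEL7WT, from 2 to 10 and from 2 to 7 in ESC + H/F-PRAMEL7ΔN, and from 3 to 9 and from 2 to 6 between the derived lines. The highest counts were those without a parental library. Over all genes, the loess correction gave 1815 higher for ESC + H/F-PRAMEL7WT and 1879 for ESC + H/F-PRAMEL7ΔN, in place of 1126 and 808, and the filter gave 12926 tested genes against 24928 without it. Centred on its chromosome median, the log2 fold change of Myh10 was -0.11 and -0.36 in the 2 derived lines, and the median of the members in ESC + H/F-PRAMEL7WT was 0.26.

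Replicate numbers did not pair the libraries: differences of library 1 and 2 correlated across genes by 0.21 between parental and wild-type, -0.25 between parental and truncated and -0.10 between the derived lines. The replicate block left 10 members higher and 5 lower for ESC + H/F-PRAMEL7WT, 8 and 5 for ESC + H/F-PRAMEL7ΔN and 5 and 4 between them, with Cnn1 lost for PRAMEL7WT, and Pdlim7 lost and Lasp1 gained for PRAMEL7ΔN. Variance between libraries exceeded that of counting 27.6 times for the parental line, 5.26 times for wild-type and 10.3 times for truncated PRAMEL7. Cnn1 had 7 to 32 reads per library, and Tagln was too rare to test.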

Other observations

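Some genes of intermediate filaments, a cytoskeletal system beside actin, were also measured. The genes named here were chosen after their values were seen. Vim, encoding vimentin, had 111.4 and 102.7 CPM in the parental libraries, 144.4 and 151.8 with PRAMEL7WT and 36.8 and 37.5 with PRAMEL7ΔN. It rose in the former by 0.47 on the log2 scale (adjusted p = 0.00683) and fell in the latter by 1.5 (adjusted p = 1.14e-05). The keratin genes Krt8 and Krt18, which pair in simple epithelia, went the other way in ESC + H/F-PRAMEL7ΔN, with rises of 0.79 and 0.63 (adjusted p = 0.00448 and 0.0137). Krt8 went from 13.8 and 17.5 CPM in the parental libraries to 26.9 and 28.4 with truncated PRAMEL7. Krt7 was not called, and its log2 fold change of 0.49 between the derived lines did not pass the test (adjusted p = 0.195).

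Cald1, encoding caldesmon, which binds actin together with tropomyosin, had 34.7 and 48.7 CPM in the parental libraries, 26.3 and 25.3 with PRAMEL7WT and 95 and 94.6 with PRAMEL7ΔN. It fell in ESC + H/F-PRAMEL7WT by 0.65 (adjusted p = 0.0116) and rose in ESC + H/F-PRAMEL7ΔN by 1.19 (adjusted p = 0.000775), beside chromosome 6 medians of -0.26 and 0.25. The muscle relatives Actn2 and Myl7 fell in both derived lines, Actn2 by 1.29 and 1.07 (adjusted p = 0.00152 and 0.00287) and Myl7, on chromosome 11, by 1.06 and 0.9 (adjusted p = 0.00207 and 0.00363). Actn3, another muscle alpha-actinin, changed by -0.01 in ESC + H/F-PRAMEL7WT (adjusted p = 0.945) and fell in ESC + H/F-PRAMEL7ΔN by 0.72 (adjusted p = 0.0044).

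Of 12 endoderm markers 7 were tested, and the list summed to 425 to 467.6 CPM. Of these 7, 3 rose in ESC + H/F-PRAMEL7WT (42.9%, beside 25% of all tested genes called). In ESC + H/F-PRAMEL7ΔN 3 rose and 1 fell (57.1%, beside 19.9% of all tested genes called). Gata6, Sox17 and Foxa2 of this list stayed under 1 CPM in each library, whereas Lama1 had 238 to 266.4 CPM. Of 10 trophoblast markers 6 were tested, and the list summed to 93.4 to 139.2 CPM. Of these 6, 1 fell in ESC + H/F-PRAMEL7WT (16.7%, beside 25% of all tested genes called). In ESC + H/F-PRAMEL7ΔN 4 rose and 1 fell (83.3%, beside 19.9% of all tested genes called). Eomes rose there by 0.96 (adjusted p = 0.00515) and Hand1 by 0.71 (adjusted p = 0.021), whereas Tfap2c fell by 1.26 (adjusted p = 0.00144). Hand1 was rare, with 0.542 to 1.66 CPM from 10 to 33 reads per library. Cdx2, Elf5 and Gata3 of the trophoblast list stayed under 1 CPM in each library. Thy1, a fibroblast marker, fell in ESC + H/F-PRAMEL7WT by 1.08 (adjusted p = 0.00148). The ESC list of 12 genes summed to 7080 to 8172 CPM, and the part of other cells in the members' values was not tested.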
